A study of Mus musculus with 24 samples.

Results

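50 genes of the cell division cycle were followed across derivatives of EO771, a mouse mammary carcinoma cell line from a spontaneous tumour of C57BL/6 mice, grown in culture. They were taken by symbol from the count tables and make up 50 of the 13915 genes of the batch 2 table, with the same Ensembl identifiers among the 55471 genes of the batch 1 table. The list holds 29 genes of DNA replication and its control (S phase) and 21 genes of mitosis. It was drawn up by function, with earlier results of these data known. All 50 were tested in both batches, among 13261 genes in batch 1 and 13314 in batch 2.

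The 4 derivatives share a retroviral transduction with the pLNCX2 vector and growth in the same medium. X2 cells carried the vector control. CCR7 cells were transduced with mouse Ccr7 and tdTomato, enriched by a sort for tdTomato and CCR7, and then sorted as PDPN-negative. CCR7-PDPN cells are those of the same transduction and enrichment sorted for PDPN, a surface glycoprotein that had come up spontaneously. The study also followed tdTomato in X2 cells and controlled its level across derivatives. X2-PDPN cells were sorted for spontaneous PDPN from the vector control. No clones were picked. X2 and CCR7-PDPN were sequenced in both batches, CCR7 in batch 1 and X2-PDPN in batch 2, with 4 libraries for each derivative and batch. The study calls these technical replicates, so the p-values measure the spread between such libraries and not between separate cultures.

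A cell that divides first licenses its replication origins by loading the MCM helicase with the help of Cdc6 and Cdt1. D-type cyclins with Cdk4 or Cdk6, and then cyclin E with its kinase, release E2F factors, which turn on replication genes. The mitotic genes follow, under factors that include Foxm1 and a promoter element called CHR, and the products of Cdkn1a, Cdkn1b and Cdkn2c restrain the kinases.

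The promoters of the members carried these elements in different shares, and 3 are shown because the genes behind them moved most clearly in the comparisons described here. RefSeq promoters (build GRCm38.p6, 250 bases before to 50 after the annotated start) were matched to 39 of the 50 members by symbol. Letters in capitals mark any E2F motif (TTTCGCGC, TTTGGCGC, TTTCCCGC or TTTGCCGC), CHR motif (TTTGAA or TTTAAA) or CCAAT box, each searched on both strands. Cdt1 lies at chr8:122567765-122568064 on the plus strand, Ccnb2 at chr9:70421505-70421804 on the minus strand and Mki67 at chr7:135716330-135716629 on the minus strand.
Cdt1: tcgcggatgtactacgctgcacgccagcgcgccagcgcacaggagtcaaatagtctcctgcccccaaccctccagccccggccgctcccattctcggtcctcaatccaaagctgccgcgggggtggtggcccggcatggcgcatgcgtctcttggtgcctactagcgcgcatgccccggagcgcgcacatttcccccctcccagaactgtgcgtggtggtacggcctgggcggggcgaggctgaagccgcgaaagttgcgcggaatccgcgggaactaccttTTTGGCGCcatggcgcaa
Ccnb2: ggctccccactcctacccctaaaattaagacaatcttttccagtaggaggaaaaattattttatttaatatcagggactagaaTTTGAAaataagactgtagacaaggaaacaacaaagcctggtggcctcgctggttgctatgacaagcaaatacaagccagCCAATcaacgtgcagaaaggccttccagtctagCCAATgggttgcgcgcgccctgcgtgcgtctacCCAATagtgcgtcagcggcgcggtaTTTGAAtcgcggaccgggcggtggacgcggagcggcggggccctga
Mki67: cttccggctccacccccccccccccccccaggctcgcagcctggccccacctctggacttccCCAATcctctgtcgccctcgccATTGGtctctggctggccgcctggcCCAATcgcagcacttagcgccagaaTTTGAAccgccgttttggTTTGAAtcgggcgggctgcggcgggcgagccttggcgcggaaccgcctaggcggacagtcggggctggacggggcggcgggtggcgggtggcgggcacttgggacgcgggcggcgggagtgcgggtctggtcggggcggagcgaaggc
The Cdt1 window held 1 E2F motif, downstream of the start, and neither of the other elements, whereas the windows of Ccnb2 and Mki67 each held 2 CHR motifs and 3 CCAAT boxes and no E2F motif. A CHR motif was found in 15 of 16 mitosis promoters (93.8%), in 7 of 23 replication promoters (30.4%) and in 18.9% of the 9480 promoters of tested genes. For the E2F motifs the shares were 6.25%, 30.4% and 4.3%, and for the CCAAT box 93.8%, 52.2% and 39.5%. These are matches of letters in a window and not shown to be sites.

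Library totals lay between 22275468 and 35721027 counts, and a member had at least 414 and at most 31416 counts in a library. Levels are given as TPM, which divides counts by exon length and scales each library to one total, so that genes can be compared. Differences are log2 fold changes with standard errors (SE) from edgeR's quasi-likelihood test, called higher or lower at a Benjamini-Hochberg adjusted p under 0.05 over all genes tested. Ccr7 lay at 5120 to 6320 TPM in the Ccr7-transduced libraries and at most 1.81 elsewhere, and Pdpn at 47.3 to 54.7 TPM in the PDPN-sorted libraries and at most 1.27 elsewhere, in the pattern the labels give. Of 10 mammary epithelial markers only Krt8 reached 1 TPM in batch 1, of 7 leukocyte markers only Cd68, and of 7 endothelial markers none. The summed TPM of the leukocyte list, nearly all Cd68, fell with either mark: batch 1 had 132 to 156 (X2), 42.2 to 57.6 (CCR7) and 24 to 32.1 (CCR7-PDPN), and batch 2 had 131 to 147 (X2), 56.9 to 69.2 (X2-PDPN) and 22.5 to 30.7 (CCR7-PDPN). Cd3e was at 0 in batch 1. The summed TPM of the epithelial list, nearly all Krt8, went the other way, with 434 to 447 (X2), 442 to 518 (CCR7) and 538 to 575 (CCR7-PDPN) in batch 1 and 415 to 439 (X2), 507 to 542 (X2-PDPN) and 532 to 569 (CCR7-PDPN) in batch 2. Esr1, its other tested gene, was under 1 TPM and fell by 3.76 from X2 to CCR7-PDPN in batch 1. The part of these lists in the results was not tested.

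In X2 cells of batch 1 the members spanned from 12.5 ± 0.467 TPM for Cdc6, a licensing factor, to 395 ± 8.22 TPM for Cdc20, an activator of the anaphase-promoting complex (SD, n = 4). Most changes were small. In each of the 6 comparisons 44 to 50 of the 50 members moved by less than 0.5 on the log2 scale. With the limit of an absolute log2 fold change above 1 added, only Gins2 and Cdt1 were called in any comparison. Under that limit 6.48% of all genes were called between CCR7 and X2, 3.27% between CCR7-PDPN and CCR7, 9.45% and 9.63% between CCR7-PDPN and X2 in batches 1 and 2, 5.05% between X2-PDPN and X2, and 9.16% between CCR7-PDPN and X2-PDPN.

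**Figure D1:**
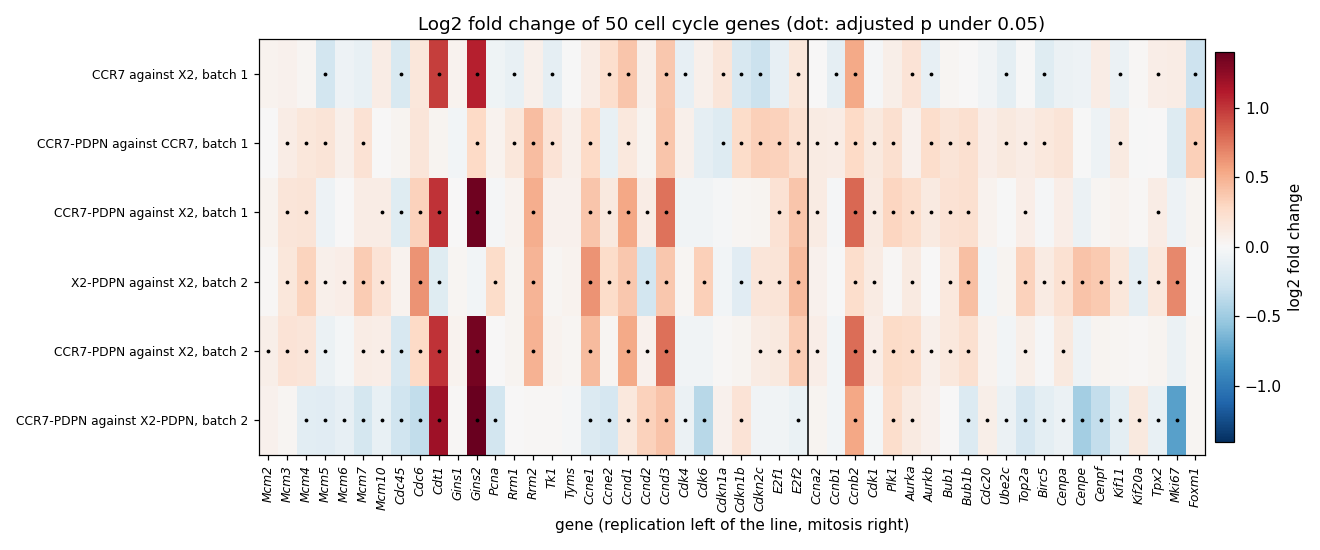
Log2 fold change of each of the 50 members (columns, 29 replication genes left of the line and 21 mitosis genes right) in the 6 comparisons (rows), with a dot where the adjusted p was under 0.05. Gins2 and Cdt1 stand out in the comparisons of Ccr7-transduced with other cells, and most other members are pale.

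Cdt1, which loads the MCM helicase, and Gins2, a subunit of the GINS complex of the active helicase, were the members that differed most. Cdt1 had 216, 213, 211 and 219 TPM in the X2 libraries of batch 1, 418, 397, 437 and 433 in CCR7, and 427, 439, 426 and 409 in CCR7-PDPN. Every Ccr7-transduced library lay above every X2 library, and CCR7 and CCR7-PDPN overlapped. Cdt1 was 1.96-fold higher in CCR7 than in X2 (log2 fold change 0.97, SE 0.03, adjusted p = 5.12e-16, edgeR). In batch 2 it stood at 221, 218, 198 and 217 TPM in X2, at 190, 189, 188 and 193 in X2-PDPN and at 432, 425, 430 and 412 in CCR7-PDPN. The PDPN sort without Ccr7 thus had the lowest values, 0.17 below X2 on the log2 scale (SE 0.03, adjusted p = 5.54e-06, edgeR).

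Gins2 had 15.2, 17.3, 16.5 and 15.2 TPM in X2 of batch 1, 37.9, 34.4, 32.8 and 31.0 in CCR7 and 42.1, 40.6, 38.5 and 40.9 in CCR7-PDPN. The 3 groups did not overlap, and Gins2 rose by 1.09 from X2 to CCR7 (SE 0.06, adjusted p = 2.14e-12, edgeR) and by a further 0.27 from CCR7 to CCR7-PDPN (SE 0.05, adjusted p = 0.000429, edgeR). In batch 2 X2-PDPN libraries, at 15.3 to 17.4 TPM, overlapped those of X2, at 16.1 to 18.1 TPM, and CCR7-PDPN lay at 41.3 to 43.3 TPM. The span of Gins2 overlaps that of annotated Gse1, and the strand used in counting is not given in the sources used here.

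Both genes lie near each other on chromosome 8 (GRCm38), Gins2 from 120578633 to 120589304 and Cdt1 from 122568015 to 122573554, and the genes around them moved with them. Of the 124 other tested genes that start within 5 Mb of Cdt1, 86 were higher and 14 lower in CCR7 than in X2, with a median log2 fold change of 0.83, and 51 of them changed by more than Cdt1. Around Gins2, 94 of 123 genes were higher and 8 lower, with a median of 0.90. In batch 2, where 118 and 117 neighbours were tested, their medians in X2-PDPN against X2 were -0.18 for both genes, where Cdt1 was at -0.17 and Gins2 at -0.04. With the neighbours' median taken off, Cdt1 in X2-PDPN against X2 came to 0.0078, of the opposite sign. Mcm5, a helicase subunit on the same chromosome (75109569 to 75128439), fell by 0.26 in CCR7 against X2 beside a neighbour median of -0.27, with 72 of 110 neighbours lower.

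Ccnb2, a cyclin of CDK1, was the mitosis gene that changed most between CCR7 and X2. It had 206, 211, 211 and 204 TPM in X2 of batch 1, 309, 309, 286 and 297 in CCR7 and 359, 347, 348 and 372 in CCR7-PDPN. The groups did not overlap, and Ccnb2 rose by 0.53 from X2 to CCR7 (SE 0.04, adjusted p = 7.68e-11, edgeR) and by 0.27 from CCR7 to CCR7-PDPN (SE 0.04, adjusted p = 3.11e-06, edgeR). In batch 2 X2-PDPN rose above X2 by 0.24 and CCR7-PDPN above X2 by 0.78. Its surroundings on chromosome 9 (gene at 70407692 to 70421547) were also higher: 45 of 56 neighbours were called higher in CCR7 against X2, with a median of 0.48, and 40 of 59 in X2-PDPN against X2, with a median of 0.28. Less that median Ccnb2 was at -0.0376 in X2-PDPN against X2. From CCR7 to CCR7-PDPN the neighbour median was -0.01.

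**Figure D2:**
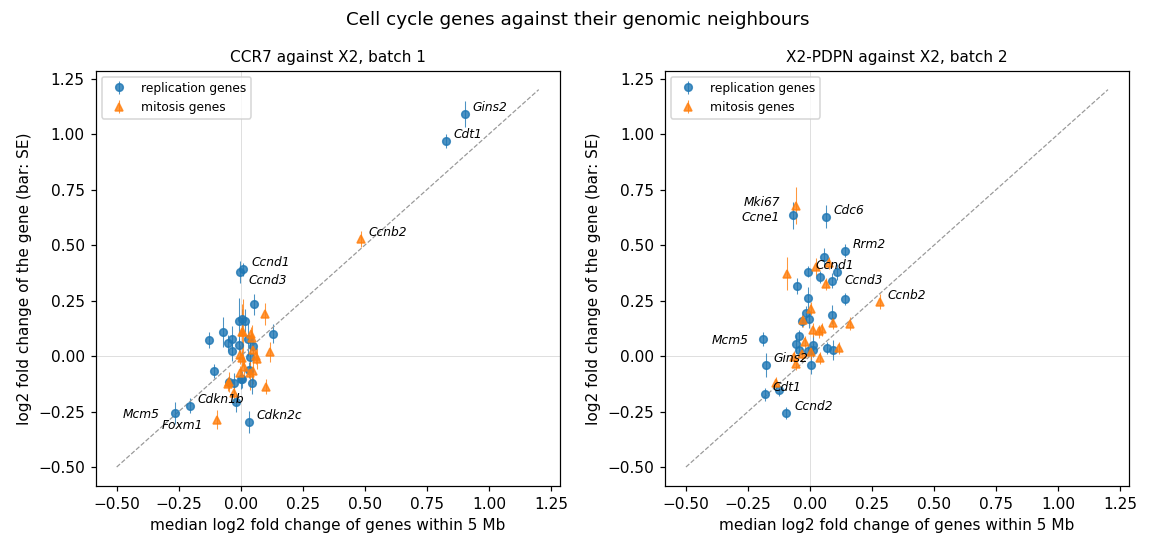
Log2 fold change of each member (vertical axis, bar: SE) against the median log2 fold change of the other tested genes within 5 Mb (horizontal axis), for CCR7 against X2 and for X2-PDPN against X2. In CCR7 against X2 Cdt1, Gins2 and Ccnb2 lie near the dashed line of equality with neighbour medians of 0.83, 0.90 and 0.48, whereas Ccnd1 and Ccnd3 lie above neighbours near 0.

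The D-type cyclins are partners of Cdk4 and Cdk6, and the neighbour medians of Ccnd1 and Ccnd3 were at most 0.11 in each comparison. Ccnd1 had 340, 332, 337 and 338 TPM in X2 of batch 1, 454, 431, 437 and 446 in CCR7 and 481, 477, 480 and 490 in CCR7-PDPN. It rose by 0.39 in CCR7 against X2 (SE 0.03, adjusted p = 1.19e-10, edgeR) beside a neighbour median of 0.01, and by 0.38 in X2-PDPN against X2 (SE 0.02, adjusted p = 2.66e-17, edgeR) beside -0.01. Ccnd3 had 26.2, 26.2, 25.7 and 26.4 TPM in X2 of batch 1, 36.8, 33.8, 32.3 and 33.2 in CCR7 and 42.4, 48.3, 43.7 and 40.2 in CCR7-PDPN, again without overlap. Its rise was 0.38 in CCR7 against X2 (SE 0.05, adjusted p = 1.59e-06, edgeR), 0.39 in CCR7-PDPN against CCR7 and 0.38 in X2-PDPN against X2. Both cyclins were therefore higher with either mark alone and highest in CCR7-PDPN, where the log2 fold changes against X2 were 0.54 and 0.76 in batch 1 and 0.53 and 0.78 in batch 2. Ccnd2 did not follow them: it fell by 0.26 in X2-PDPN against X2 (SE 0.03, adjusted p = 1.31e-11, edgeR), with all 4 X2-PDPN libraries (252 to 275 TPM) below all 4 of X2 (313 to 324 TPM), and its log2 fold change in CCR7 against X2 was 0.07 (SE 0.04, adjusted p = 0.112, edgeR). Without CCR7 replicate 1, at 295 TPM the lowest of its group, the latter value was 0.12 (adjusted p = 0.000148, edgeR). Ccnd1 and Ccnd3 overlap annotated LTO1 and Bysl, which also had reads.

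**Figure D3:**
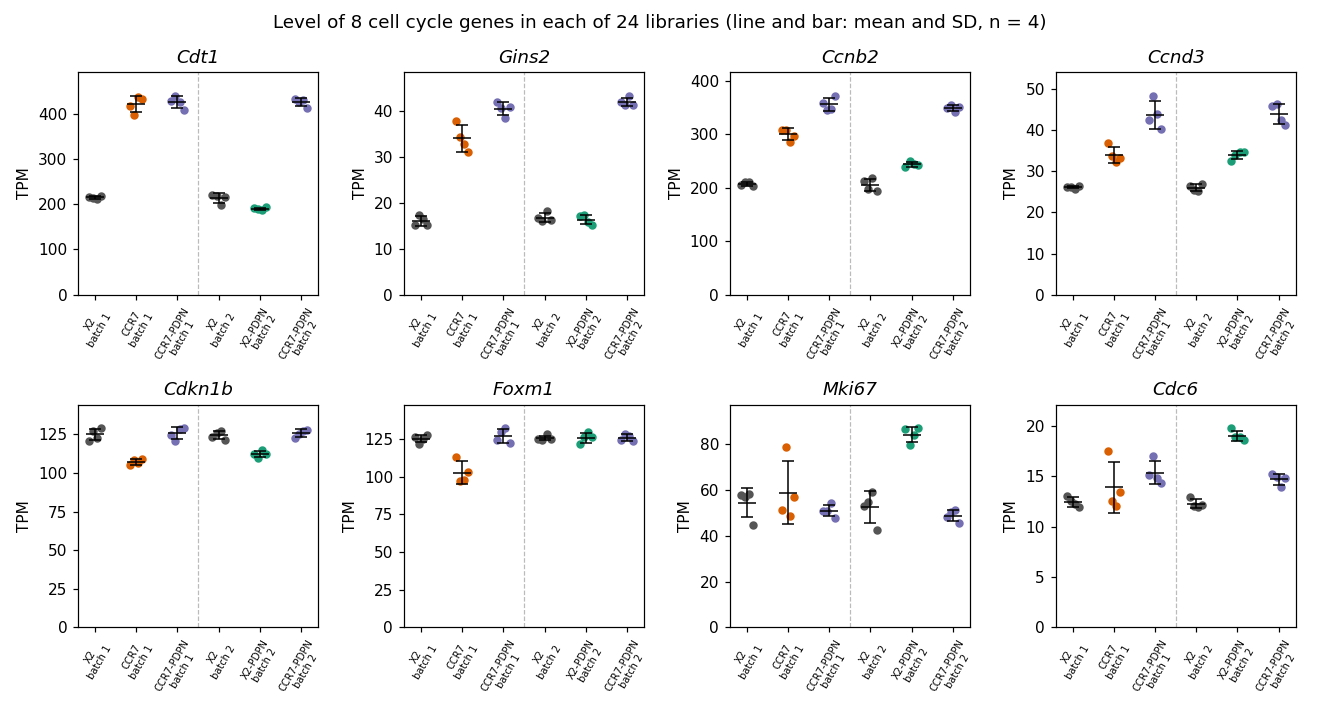
TPM of 8 members in each of the 24 libraries, by group, with the mean and SD of 4 libraries; the dashed line parts the batches and each vertical axis starts at 0. Cdt1, Gins2 and Ccnb2 are high in the Ccr7-transduced groups, Ccnd3 rises with either mark, Foxm1 is low in CCR7, Cdkn1b in CCR7 and X2-PDPN, and Mki67 and Cdc6 are highest in X2-PDPN.

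CCR7 and X2 differ in the Ccr7 construct and in the sort that enriched CCR7-expressing cells, and the CCR7 cells were also sorted as PDPN-negative. The construct, the sorts and other differences between the transduced populations cannot be told apart here. Between them 10 members were higher in CCR7 (20%) and 13 lower (26%), against 24% and 25.2% of all genes. With all libraries the counts were thus near the shares over all genes. Without CCR7 replicate 1, 11 members were higher and 19 lower, against 25.9% and 27% of all genes. The median log2 fold change with all libraries was 0.05 over the replication genes and -0.01 over the mitosis genes. Foxm1, the transcription factor of many mitotic genes, had 126, 122, 125 and 127 TPM in X2 and 113, 97.0, 97.8 and 103 in CCR7, a fall of 0.29 (SE 0.04, adjusted p = 8.18e-06, edgeR). The inhibitors went in different directions. Cdkn2c, an inhibitor of Cdk4 and Cdk6, fell by 0.30 (61.2 to 65.6 TPM in X2, 49.95 to 58.0 in CCR7), and Cdkn1b fell by 0.22 (121 to 129 TPM against 105 to 109) beside a neighbour median of -0.20. Cdkn1a, a target of p53, rose by 0.17 (67.6 to 71.5 TPM against 72.7 to 84.2). Each of these 3 pairs of groups did not overlap. Cdk4 fell by 0.12, Ccne2 rose by 0.23 and E2f2 rose by 0.16, and without CCR7 replicate 1 the value of E2f2 was 0.11 (adjusted p = 0.0522, edgeR). Pcna, the replication clamp, and Mcm2 were at -0.06 and 0.05 and did not pass the test, but without CCR7 replicate 1 Pcna was called lower, at -0.10 (adjusted p = 0.00936, edgeR).

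From CCR7 to CCR7-PDPN, the sort for PDPN among Ccr7-transduced cells, members moved mostly upward. Higher were 28 (56%) and lower 1 (2%), against 20.9% and 20.7% of all genes, and the median log2 fold change was 0.15 over the replication genes and 0.12 over the mitosis genes, against 0.00 over all genes. Among the cyclins, CDK1 and mitotic kinases 6 of 7 were higher, and among the chromosome, kinetochore and spindle genes 3 of 8. Rrm2, a subunit of ribonucleotide reductase, which supplies deoxynucleotides, had 285, 231, 223 and 226 TPM in CCR7 and 330, 335, 300 and 319 in CCR7-PDPN, a rise of 0.44 (SE 0.07, adjusted p = 0.000631, edgeR). Foxm1 rose by 0.33, to 122 to 132 TPM, a range that overlaps that of X2. Cdkn2c rose by 0.34, Cdkn1b by 0.26 and E2f1 by 0.32, each with no overlap between the groups. Ccne1 rose by 0.28, with CCR7 at 34.0 to 40.9 TPM and CCR7-PDPN at 40.8 to 49.0, and Cdkn1a was the member that fell, by 0.18. Foxm1 and the inhibitors then lay near X2: in CCR7-PDPN against X2 of batch 1 the log2 fold changes of Foxm1, Cdkn1b, Cdkn2c and Cdkn1a lay between -0.02 and 0.04. In batch 2 the same held for Foxm1, Cdkn1b and Cdkn1a, at 0.02 to 0.04, whereas Cdkn2c was called higher, at 0.12 (adjusted p = 0.0061, edgeR). CCR7 replicate 1 had the highest mean over the replication genes of its group, and it stood apart over all genes. It had 12.3 to 20.4 as chi-square over its degrees of freedom against each of the other 3 libraries, whose own pairs had 2.55 to 7.81. Without it 35 members were higher and 2 lower, against 24.4% and 24.3% of all genes. Cdc6 then passed the test, at 0.31 (adjusted p = 7.78e-05, edgeR) against 0.17 (adjusted p = 0.209, edgeR) with it.

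**Figure D4:**
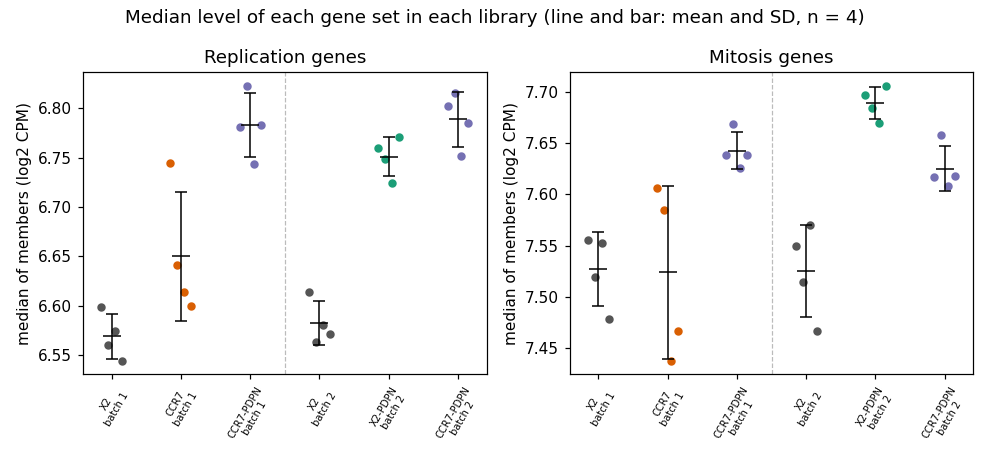
Mean log2 CPM (counts scaled to library size, prior count 2) of the 29 replication genes and of the 21 mitosis genes in each library. The line and bar give the mean and SD of 4 libraries per group, and the axes do not start at 0. The title and axis labels of the figure call these values medians, but they are means over the genes. The CCR7-PDPN and X2-PDPN libraries lie above X2 for both sets, and the CCR7 libraries spread from 6.6 to 6.75 for replication and from 7.44 to 7.61 for mitosis.

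As means over the replication genes the X2 libraries spanned 6.54 to 6.6 log2 CPM in batch 1 and 6.56 to 6.61 in batch 2. Those of CCR7-PDPN spanned 6.74 to 6.82 and 6.75 to 6.82, and those of X2-PDPN 6.72 to 6.77. These means include Cdt1 and Gins2. The median log2 fold change over the replication genes in CCR7-PDPN against X2 of batch 1 was 0.10. As means over the mitosis genes the X2 libraries of batch 1 spanned 7.48 to 7.56, those of CCR7 7.44 to 7.61 and those of CCR7-PDPN 7.63 to 7.67. By these means CCR7 overlapped X2 and CCR7-PDPN did not. In batch 2 the highest X2 library was at 7.57 and the lowest of CCR7-PDPN at 7.61. The mitosis means include Ccnb2, which rose by 0.80 and 0.78 in CCR7-PDPN against X2 in batches 1 and 2. Means without Ccnb2 were not computed.

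In X2-PDPN against X2, the sort for PDPN without Ccr7, 30 members were higher (60%) and 4 lower (8%), against 28.2% and 28.5% of all genes. The medians were 0.16 over the replication genes and 0.12 over the mitosis genes. Mki67, the proliferation marker, had 53.04, 54.6, 59.1 and 42.5 TPM in X2 and 86.3, 79.3, 83.7 and 86.6 in X2-PDPN. All X2-PDPN libraries lay above all X2 libraries, and the rise was 0.68 (SE 0.08, adjusted p = 5.64e-05, edgeR), or 0.59 without X2 replicate 4. Cdc6 rose by 0.63 (11.9 to 12.9 TPM against 18.6 to 19.8) and Ccne1, a cyclin of the entry into S phase, by 0.63 (30.8 to 34.6 TPM against 47.5 to 55.6). Rrm2 rose by 0.47, E2f2 by 0.45, Bub1b, a kinase of the spindle checkpoint, by 0.42, Cdk6 by 0.34, Top2a, a topoisomerase, by 0.32 and Pcna by 0.26, each with no overlap between the groups. The members that fell were Ccnd2, Cdt1, Cdkn1b (by 0.15) and Kif20a. Foxm1 was at 0.00 (SE 0.03, adjusted p = 0.944, edgeR).

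Among the chromosome, kinetochore and spindle genes 7 of 8 were higher in X2-PDPN, and Cenpe and Cenpf, long kinetochore genes named after their values were seen, rose by 0.40 and 0.37. Long genes moved up as a class in this comparison: the median log2 fold change was 0.09 over the 642 tested genes of the longest exon class. Genes of like length were taken from the tested genes with an average log2 CPM of 5 or more. Among 1006 of these with an exon length within 20% of that of Mki67 (10061 bases) the median was 0.02 and 1.19% lay above Mki67. By the same rule 18.4% of the genes of like length lay above Cenpf and 5.77% above Cenpe. The part of gene length in these values was not tested. The X2 replicate 4 libraries were the lowest of their group for Mki67 in both batches (44.7 TPM in batch 1 and 42.5 in batch 2).

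CCR7-PDPN was set against X2 in each batch. In batch 1, 24 members were higher and 1 lower, against 30.3% and 30.6% of all genes, and in batch 2, 26 were higher and 2 lower, against 32% and 32.8%. The member that fell in both was Cdc45, a helicase component, by 0.17 and 0.22. Of the 50 members 23 were called in the same direction in both batches, 0 in opposite directions, 2 in batch 1 alone, 5 in batch 2 alone and 20 in neither, and the log2 fold changes differed by at most 0.105. The test of the difference between batches called 0 of the 50 members and 0 of 13690 genes (0%, edgeR), with 293 genes (2.14%) and 0 members at an unadjusted p under 0.05, and DESeq2 also called 0. The 2 batches may not be separate material. Same-numbered libraries of a derivative deviated from their group means together across batches, with correlations of 0.05 to 0.30 over 10754 genes, against -0.15 to 0.07 for libraries of different number, and all 8 X2 and CCR7-PDPN libraries of batch 1 correlated best with their own number. From the side of batch 2, X2 replicate 3 correlated best with replicate 2 of batch 1 (0.07, against 0.05 with its own number). The labels do not say whether RNA was shared, so the repeat is not given as independent. Mki67 was at -0.08 in batch 2 (SE 0.09, adjusted p = 0.434, edgeR), and without X2 replicate 4 it was at -0.17 (adjusted p = 0.000155, edgeR).

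Against X2-PDPN, CCR7-PDPN cells had 11 members higher (22%) and 23 lower (46%), against 31.2% and 32% of all genes. Gins2 and Cdt1 were 2.60-fold and 2.28-fold higher. Mki67, at 48.1, 50.2, 51.1 and 45.5 TPM in CCR7-PDPN, fell by 0.76 (SE 0.08, adjusted p = 2e-05, edgeR), and it had no library in common range with X2-PDPN. Cdk6 fell by 0.38, Cdc6 by 0.35, Pcna by 0.26 and Top2a by 0.24, and of the chromosome, kinetochore and spindle genes 7 of 8 fell and 1 rose. Long genes moved down as a class here: the median log2 fold change was -0.14 over the 642 tested genes of the longest exon class. Of the genes of like length, by the rule above, 98.3% lay above Mki67, 94.5% above Cenpe, 83% above Top2a and 76.6% above Cenpf. The part of gene length in these falls was not tested. Ccnd2 rose by 0.32, Ccnd3 by 0.40, Cdkn1b by 0.19 and Ccnb2 by 0.54. The groups share the PDPN sort and differ in Ccr7, in the sort for CCR7 and in the transduced population they came from. X2-PDPN is the common group of this comparison and that with X2, so the falls here and the rises there rest in part on the same 4 libraries.

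The effect of the PDPN sort was compared with and without Ccr7, in different batches. With Ccr7 the PDPN-positive cells were set against a PDPN-negative sort, and without it against the X2 cells that they were sorted from, so the 2 effects are not built alike. The difference of these effects, CCR7-PDPN minus CCR7 in batch 1 less X2-PDPN minus X2 in batch 2, was called for 27 of the 50 members (12 above and 15 below 0), against 40.8% of all 13690 genes (edgeR), and DESeq2 called 26. Mki67 had the lowest value, -0.85 (SE 0.17, adjusted p = 0.000596, edgeR), with a rise of 0.68 without Ccr7 and a value of -0.18 with it (adjusted p = 0.385, edgeR). The latter rests on CCR7 libraries at 50.9, 78.7, 48.4 and 56.6 TPM, and without replicate 2 it was -0.0039. Cdk6 and Cdc6 were at -0.46 each. Cdkn1b had the highest, 0.41 (SE 0.04, adjusted p = 6.6e-11, edgeR), being lower without Ccr7 and higher with it, and Foxm1 was at 0.34. For Ccnd3 the difference was 0.01 (SE 0.06, adjusted p = 0.927, edgeR). Batch, the kind of comparison group and Ccr7 cannot be told apart in this contrast.

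Other genes of the same processes, from lists drawn up by function with earlier results of these data known, were read beside the members. Of 50 other mitosis genes 30 rose and 1 fell from CCR7 to CCR7-PDPN (60% and 2%, against 20.9% and 20.7% of all genes), with a median of 0.13, and 24 rose and 6 fell from X2 to X2-PDPN (48% and 12%, against 28.2% and 28.5%), with a median of 0.08. Of 50 other replication genes 15 rose and 7 fell in the first comparison (30% and 14%) and 28 rose and 9 fell in the second (56% and 18%), with medians of 0.05 and 0.14. In CCR7 against X2 these lists had 7 higher and 16 lower mitosis genes (14% and 32%) and 12 higher and 18 lower replication genes (24% and 36%), against 24% and 25.2% of all genes. Of 37 tested G1/S and G2/M regulators 10 were higher and 11 lower in CCR7 than in X2 (27% and 29.7%, near those shares), among them E2f4, a repressor E2F (1.16, neighbour median 0.93), and Tfdp1, the partner of E2F factors (-0.99, neighbour median -0.52). Of 22 tested p53 targets 2 rose (9.09%) and 15 fell (68.2%) from X2 to CCR7-PDPN in batch 1, against 30.3% and 30.6% of all genes, with a median of -0.30 over the list, although Cdkn1a, the best known of them and a member here, was at -0.02. Cdkn2a and Cdkn2b, which encode inhibitors of Cdk4 and Cdk6, were without a count in the 12 batch 1 libraries (0 counts, for which 3 counts in the shallowest library set an upper limit of 0.135 CPM, counting error only), and they were not analysed in batch 2.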

How the data were processed

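RNA of 24 libraries was prepared with a stranded mRNA kit and sequenced in single-end mode (75 bases). Per the file headers and the labels, the authors deposited raw counts per Ensembl gene of GRCm38, with no normalization and no pooling; the aligner is not given in the sources used here. The batch 2 table holds 13915 genes, by a rule not given in the sources used here. The members and lists were chosen with earlier results of these data known.

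Libraries were grouped by their labels. Each batch was fitted over its 3 groups with edgeR 4.0.16 in R 4.3.3 (TMM, filterByExpr, robust quasi-likelihood, Benjamini-Hochberg), and the differences of differences over 6 groups. SE was taken as the size of a log2 fold change divided by the root of its F statistic. TPM used the tables' exon lengths. Replicate pairs differed by more than sampling noise (chi-square per degree of freedom 1.99 to 20.4). Alternatives were DESeq2 1.42.0, RLE, upper-quartile and no factors, no filter, fewer groups, a replicate block, each library left out and subtraction of the neighbours' median. DESeq2 for the differences of differences was added after seeing the data. The steps were tested on simulated data.

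Named genes were a fixed list of 18, the 2 members of each set that changed most without overlap (on log2 CPM) in each of 4 comparisons, and those past a log2 fold change of 1. Some others were named after their values were seen, with their counts. Figures were made with Python 3.11.15 and matplotlib 3.10.9.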

Additional observations from a re-analysis of the deposited data

Results flagged for a closer look

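In groups of 4 libraries, 9 of 156 gene or set values had a library far from the other 3 by Dixon's criterion on log2 CPM, where chance gives about 7.8. In batch 1 these were Mki67 in X2 replicate 4 (44.7 TPM, others 56.9 to 57.9), Ccnd1 in CCR7-PDPN replicate 4 (490.2, others 477 to 481), Ccne2 in CCR7-PDPN replicate 3 (29.8, others 32.2 to 32.9), Top2a in CCR7 replicate 2 (329, others 294 to 299), and Cdkn2c and Rrm2 in CCR7 replicate 1 (58.0, others 49.95 to 50.4, and 285, others 223 to 231). In batch 2 they were Ccnd2 in X2-PDPN replicate 2 (252, others 270 to 275), E2f2 in X2-PDPN replicate 4 (36.2, others 33.3 to 34.2) and Foxm1 in X2-PDPN replicate 1 (122, others 126 to 130).

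The effect of the PDPN sort differed with and without Ccr7 for 27 of the 50 members by the test of the difference itself, against 40.8% of all genes. None of these differences was above 1 in size on the log2 scale.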

How the results depend on the processing

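The median of each set and the number of members called were recomputed under every alternative, and for 144 results of 24 named members. In 118 of the 144 no alternative changed the call or its direction. Values with the neighbours' median subtracted were not tested again, so that alternative could change a sign but not a call. It moved 77 of the 144 results by at least their SE, apart from the sign changes given below. The counts of lower members, which are small, moved most. In CCR7-PDPN against X2 of batch 1 the 1 lower member became 2 with library sizes alone and 3 with only the 2 groups compared, and in batch 2 the 2 became 6 with library sizes alone and 1 to 5 with a library left out (1 without X2 replicate 1 or CCR7-PDPN replicate 3, 5 without X2 replicate 4). In CCR7-PDPN against CCR7 the 1 became 2 with no filter on low counts and was 1 to 2 with a library left out (2 without CCR7 replicate 1). The mitosis median of X2-PDPN against X2 was 0.0713 with the neighbours' median subtracted, against 0.12. Under that subtraction 3 called values changed sign: in X2-PDPN against X2 Cdt1 (0.0078) and Ccnb2 (-0.0376), and in CCR7-PDPN against X2 of batch 2 Cdk1 (-0.0128). The causes were not tested. With a replicate block, members higher were 10, 29, 25, 30, 26 and 11 in the 6 comparisons in the order CCR7 against X2, CCR7-PDPN against CCR7 and against X2 in batch 1, X2-PDPN against X2, CCR7-PDPN against X2 in batch 2 and against X2-PDPN. Same-numbered libraries within a batch correlated at -0.12 to 0.11 in their deviations, so the numbers were not taken to pair the samples, and the block changed no call of a named member.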
